A study of Mus musculus with 4 samples.

Results

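Processed pseudogenes are copies of expressed genes that arose when a messenger RNA was reverse transcribed and inserted back into the genome, and they usually lack the introns and the promoter of the parent gene. A short read from the parent's messenger RNA can match the copy as well, so a count on a copy can hold reads of the copy, of its parent, or of both. Genes with abundant messenger RNA, such as those of ribosomal proteins, have left many such copies in the mouse genome. The copies described here were selected on their raw counts. They are the rows of the deposited tables with the biotype processed pseudogene or transcribed processed pseudogene, present in both tables, with a raw count of at least 50 in at least 1 library. There are 311, of 1168 such rows at any count and of 20385 genes in both tables.

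The libraries were made from cerebral cortex dissected at embryonic day 16 in C57BL/6 mice, either wild type (WT 1, WT 4) or with a knockout of Cd93 (KO 5, KO 6), a gene that encodes a receptor known mainly from endothelial cells. Total RNA was taken up in Trizol, prepared with a TruSeq kit and sequenced on an Illumina HiSeq instrument, per the labels. No Cre driver, promoter or deleted exon is named there. The study's text speaks of triplicates, whereas the labels give 4 libraries and do not say that each came from its own animal, so p-values here measure the spread between these libraries. The authors deposited 2 tables, of which A holds KO 6 and WT 1 and B holds KO 5 and WT 4. The libraries can be divided 2 against 2 in 3 ways, and each was tested: by genotype, by table, and crossed (WT 4 and KO 6 against WT 1 and KO 5).

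Library totals lay between 16318317 (KO 6) and 17586157 counts (WT 1). Counts of Cd93 were 680 and 409 in the WT libraries 1 and 4, and 111 and 99 in the KO libraries 5 and 6. The summed level of the 8 cortical marker genes was 2957 to 3373 CPM, the counts scaled to a common library size, in the 4 libraries, with none of the 8 at 0. WT 1 stood apart by markers of neighbouring tissue. Its 6 meningeal and fibroblast markers summed to 437 CPM against 25.8 to 66.4 in the others, and its 7 ventral forebrain markers to 628 against 182 to 289. Both of these lists, and the 6 endothelial markers (190 CPM in WT 1, 107 to 110 in the others), had no gene at 0. The part of these tissues in the results below was not tested, and in bulk RNA fewer cells of a type cannot be told apart from less RNA per cell. Values without each library are given with the counts of calls.

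The sequences that carry the results are shown here as GENCODE M21 transcripts give them (GRCm38), 5′ to 3′ on the strand of the transcript, over a stretch within the coding sequence of the parent. Capitals mark bases of a copy that are inserted or that differ from the parent. The coordinates of a parent stretch can span introns, which the printed sequence lacks. Cox7a2l encodes a factor of respiratory chain supercomplexes, and Gm6969 is its copy. Gm6969 carries 6 inserted bases and 2 substitutions over the 333 aligned coding bases, all of them in this stretch.
Cox7a2l (chr17:83502636-83504117, minus strand): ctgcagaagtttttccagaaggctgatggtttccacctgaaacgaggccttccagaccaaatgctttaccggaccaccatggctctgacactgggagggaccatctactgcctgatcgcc
Gm6969 (chr12:24638702-24638827, minus strand): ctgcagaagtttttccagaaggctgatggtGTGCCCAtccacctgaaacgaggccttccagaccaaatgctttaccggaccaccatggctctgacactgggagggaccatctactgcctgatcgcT
As background, Cox7a2l is known in a longer and a shorter form that differ by a short in-frame stretch, and C57BL/6 is known to carry the shorter form. Which form these libraries carry was not tested. Tdg encodes a DNA glycosylase that removes mispaired or modified bases, and its copy Gm9855 differs at 9 of 1191 aligned coding bases, 5 of them here.
Tdg (chr10:82648009-82648627, plus strand): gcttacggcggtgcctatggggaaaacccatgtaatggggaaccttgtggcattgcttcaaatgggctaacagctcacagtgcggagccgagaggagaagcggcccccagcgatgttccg
Gm9855 (chr10:42054206-42054325, minus strand): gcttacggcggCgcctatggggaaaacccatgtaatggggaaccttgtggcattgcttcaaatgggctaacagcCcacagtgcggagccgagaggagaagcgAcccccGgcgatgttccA
Rps18 encodes a protein of the small ribosomal subunit. Its copy Rps18-ps3 differs at 3 of 456 aligned coding bases, 2 of them here.
Rps18 (chr17:33952072-33952293, minus strand): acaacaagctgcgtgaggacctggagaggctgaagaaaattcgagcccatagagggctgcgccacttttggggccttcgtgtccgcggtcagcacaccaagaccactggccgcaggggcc
Rps18-ps3 (chr8:107262819-107262938, minus strand): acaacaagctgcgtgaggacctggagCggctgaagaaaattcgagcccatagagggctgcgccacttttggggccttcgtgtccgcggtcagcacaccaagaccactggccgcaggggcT
Rplp0 encodes the acidic stalk protein of the large ribosomal subunit and has 3 copies among the 311. Gm8730 differs from it at 12 of 951 aligned coding bases, Gm9625 at 24 of 951 and Gm14165 at 25 of 949.
Rplp0 (chr5:115560960-115561173, plus strand): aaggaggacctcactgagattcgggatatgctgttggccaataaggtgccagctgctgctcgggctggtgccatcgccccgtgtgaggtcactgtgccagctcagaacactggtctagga
Gm8730 (chr8:102865406-102865525, minus strand): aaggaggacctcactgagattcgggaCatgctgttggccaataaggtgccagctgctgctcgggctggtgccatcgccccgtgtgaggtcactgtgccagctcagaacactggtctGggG
Gm9625 (chr13:67810519-67810638, plus strand): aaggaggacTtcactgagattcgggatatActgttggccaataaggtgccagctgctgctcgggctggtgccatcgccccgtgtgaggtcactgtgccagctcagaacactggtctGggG
Gm14165 (chr2:152353886-152354005, plus strand): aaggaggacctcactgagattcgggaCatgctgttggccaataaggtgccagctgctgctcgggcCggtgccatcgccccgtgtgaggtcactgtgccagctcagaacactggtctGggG
Rpl15 encodes a protein of the large subunit, and its copy Rpl15-ps2 differs at 8 of 610 aligned coding bases, 3 of them here.
Rpl15 (chr14:18270329-18270448, minus strand): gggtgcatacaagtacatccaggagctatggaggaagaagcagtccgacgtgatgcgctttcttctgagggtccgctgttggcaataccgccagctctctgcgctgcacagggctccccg
Rpl15-ps2 (chr9:72060937-72061056, plus strand): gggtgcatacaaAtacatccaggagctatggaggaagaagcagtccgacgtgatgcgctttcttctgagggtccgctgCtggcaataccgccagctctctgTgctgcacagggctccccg
Rpl10a encodes another protein of the large subunit. Its copy Rpl10a-ps1 (chr1:64994485-64994604, minus strand) is the opposite case, with 0 differences over 651 aligned coding bases, so that only 1 sequence is printed for both.
Rpl10a (chr17:28328614-28329006, plus strand): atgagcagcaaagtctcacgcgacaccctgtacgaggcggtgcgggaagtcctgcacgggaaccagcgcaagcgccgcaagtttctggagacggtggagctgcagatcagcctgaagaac

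Most of the 311 resembled their parents this closely. A parent was found for 310, from 233 different genes, of which 191 had 1 copy among the members and 21 had at least 3. No minimum length was set for the alignment, and 292 copies aligned over at least 90% of their length. Others matched over a small part, such as Gm18194 over 2.85% and Zscan30 over 19.3%, so that their parents are uncertain. The median identity was 99.3% and the median length 645 bases, from 117 to 6092. Over the aligned part 53 copies were identical to the parent. The largest group by parent was that of cytosolic ribosomal proteins, with 88 copies of 52 genes, followed by chromatin and high-mobility-group proteins with 24 copies of 9 genes. By biotype 279 were processed pseudogenes and 32 transcribed processed pseudogenes. Of the 311, 195 lay between annotated genes, and 62 lay in an intron on the other strand and 39 in one on the same strand. The rest overlapped an exon, 8 on the other strand and 7 on the same strand. Whether counting used strand is not given in the sources used here, so for these copies reads of the host gene cannot be told apart.

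The mean raw count of a copy was 23.5 to 4814 with a median of 123. At least 50 counts were reached in all 4 libraries by 206 copies, in 3 by 33, in 2 by 43 and in 1 by 29. Of these, 22 reached it only in WT, 10 only in KO, 36 only in table A, 24 only in table B, 23 only in WT 4 or KO 6 and 15 only in WT 1 or KO 5. A copy that entered through 1 group is biased toward a higher value there, so counts by split describe the copies and support no direction. The least counted copy inside the limit was Gm18860, with 6, 50, 29 and 9 counts in WT 1, WT 4, KO 5 and KO 6, and the nearest outside was Tgif2-ps2, with 33, 1, 49 and 33. Zscan30, also at the limit, had 41, 41, 44 and 50. Together the 311 took 0.596% and 0.671% of the counts in the WT libraries 1 and 4, and 0.552% and 0.663% in the KO libraries 5 and 6, so the genotypes overlapped in this share.

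Several of the copies of highest mean level were nearly even over the libraries. Gm6472, a copy of the small-subunit gene Rps7, had 4305, 5221, 5320 and 4412 counts in WT 1, WT 4, KO 5 and KO 6. Eif4a-ps4, a copy of the translation initiation helicase gene Eif4a1, had 3341, 4117, 4048 and 3095. Gm9800, a copy of the prothymosin gene Ptma, had 3122, 2831, 2991 and 2570. Their highest library was less than 2-fold above their lowest. Gm8730, with the fourth highest mean, was not even at all and is described with the crossed split. AC110377.1 had 2388, 2819, 1915 and 3306, and Rpl3-ps1, a copy of the large-subunit gene Rpl3, 3371, 3205, 534 and 3063. Rpl3-ps1 was low in KO 5 alone.

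By genotype, 2 of the 310 tested copies were lower in the KO and 0 higher, at 0.05 in the quasi-likelihood test of edgeR, adjusted over all genes by Benjamini-Hochberg. The 2 copies were the only genes called of 16371, so that percent called among all genes was 0.0122. Cd93 itself was not called, at a log2 fold change, KO over WT, of -2.32 (SE 0.25, adjusted p 0.211 by edgeR). A gene that was not called can therefore still differ between the genotypes. Unadjusted p-values under 0.05 were found for 8 copies, and for 317 genes in all. The remaining copy, Gm13092, a copy of the splicing gene Snrpf with 4, 108, 2 and 4 counts, did not pass the filter on low counts.

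Gm6969 counted 854 and 686 in the WT libraries 1 and 4, and 5 and 4 in the KO libraries 5 and 6. Gm6969 reached the count limit only in WT, so the rule that chose it favoured a higher value there. WT was at 44.1 ± 5.47 CPM and KO at 0.266 ± 0.0275 CPM (SD over 2 libraries). The groups were far apart and each library of a genotype was like the other. The log2 fold change, KO over WT, was -7.33 (SE 0.24, adjusted p 0.000402 by edgeR), and the adjusted p was at most 0.0439 over the alternatives. Cox7a2l had 2099, 1949, 2508 and 2721 counts in WT 1, WT 4, KO 5 and KO 6, with both KO libraries above both WT libraries, and did not pass. The copy held 28.9% and 26.0% of the summed reads of both in the WT libraries and 0.199% and 0.147% in the KO libraries. The sum was 166, 155, 143 and 168 CPM in the same order, so that its genotypes overlapped.

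Gm9855 had 433, 478, 53 and 46 counts in WT 1, WT 4, KO 5 and KO 6. It fell from 26.2 ± 2.63 CPM in WT to 2.93 ± 0.135 CPM in KO (SD over 2 libraries). The log2 change was -3.16 (SE 0.19, adjusted p 0.0101 by edgeR). With WT 1 and KO 5 against WT 4 and KO 6 as a block the adjusted p was 0.0776, and the alternatives began at 2.86e-26. Its parent Tdg had 1512, 1601, 2886 and 2367 counts. The sum of Tdg and Gm9855 was 109, 122, 168 and 149 CPM, so both KO libraries also stayed above both WT libraries in the sum. The share of the sum on the copy was 22.3% and 23.0% in the WT libraries and 1.80% and 1.91% in the KO libraries.

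Rps18-ps3 had 298, 828, 15 and 18 counts, with both WT libraries above both KO libraries but far apart from each other. Rps18-ps3 too reached the count limit only in WT, so the rule that chose it favoured this direction. Its log2 fold change of -5.05 (SE 0.59) missed the threshold (adjusted p 0.286 by edgeR). DESeq2 called it with an adjusted p of 1.52e-06, and edgeR called it with a table block (0.000138), without WT 1 and without WT 4. Of 11 settings, the main fit included, only these 4 called Rps18-ps3. Its log2 fold change ran from -5.62 to -4.08 over the 11. Rps18 itself had 3562, 732, 5576 and 6507 counts, lowest in WT 4, where its copy was highest. The summed level of Rps18 and Rps18-ps3 was 217, 91.5, 319 and 402 CPM. This sum was not even, with a 4.39-fold range. A further gene like Rps18 in sequence, AL607105.1, is annotated as protein coding and was chosen after its values were seen. AL607105.1 had 305, 468, 52 and 57 counts in WT 1, WT 4, KO 5 and KO 6, also higher in both WT libraries. With AL607105.1 added, the sum still ranged 3.41-fold.

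**Figure D1:**
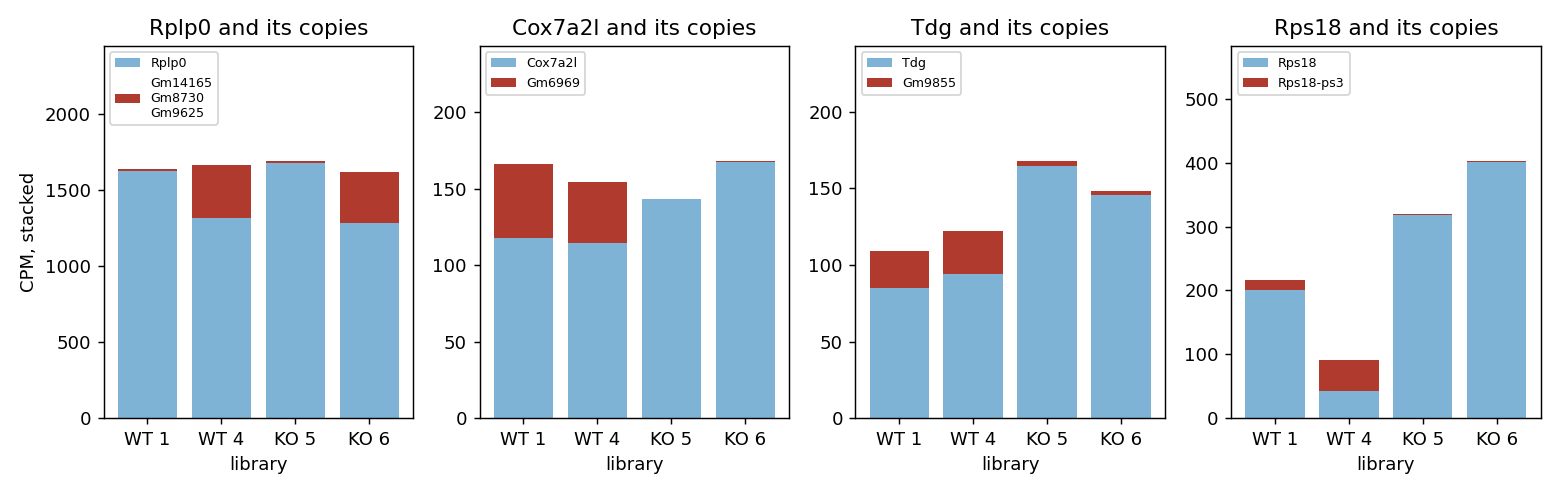
Stacked levels in CPM of 4 parent genes (light blue) and their well-counted copies (red) in each library. The Rplp0 sum varies 1.04-fold over the libraries and the Cox7a2l sum 1.17-fold, while the Tdg sum varies 1.53-fold and the Rps18 sum 4.39-fold.

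The other copies of smallest p by genotype did not pass. Gm1840, a copy of the glycolytic gene Gpi1, had 187, 203, 282 and 374 counts and a log2 difference of 0.80 (SE 0.22). Gm9762, a copy of the ubiquitin-conjugating enzyme gene Ube2d2a, had 215, 113, 69 and 68 and a log2 difference of -1.20 (SE 0.34). Gm10156, a copy of the cold-inducible RNA-binding gene Rbm3, had 236, 234, 178 and 176 and a log2 difference of -0.36 (SE 0.17). In these 3 copies WT and KO were fully apart. Over all copies this was so in 43, or 13.8%, where it was so in 23.4% of all tested genes. Each gene is fully apart in only 1 of the 3 splits, so the shares of the splits are bound to each other. A high share by table, given below, lowers the share by genotype. The median log2 fold change was -0.04 over the copies and -0.003 over all genes, with 134 copies higher and 176 lower in the KO. By parent group, 45 of 88 copies of ribosomal protein genes were higher in the KO and 43 lower. Among the 24 copies of chromatin and high-mobility-group genes 3 were higher and 21 lower, with a median of -0.10 and 0 called by edgeR. The 24 come from 9 genes, and copies of 1 gene share sequence. Counts by parent group, here and by table, are therefore a description.

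Leaving out a library changed which copies were called by genotype. Without WT 1 edgeR called 7 copies, 1 higher and 6 lower, among 44 genes in all, 9 higher and 35 lower. Without WT 4 it called 14 copies, 10 higher and 4 lower, among 312 genes, 52 higher and 260 lower. Without KO 5 it called 4 copies of 5 genes and without KO 6 it called 6 copies of 8 genes, with all of these copies lower. Gm6969 and Gm9855 were called in each of these 4 fits. The copies added without WT 4 include Gm4705 and Rpl34-ps1, both copies of the large-subunit gene Rpl34, at log2 fold changes of 4.05 and 1.94, against 1.39 and 1.19 with all libraries. They had 40, 447, 392 and 849 counts and 289, 652, 660 and 1411 counts, low in WT 1. The lone library left in a group was taken to vary like the pair in the other.

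Around Cd93, 9 copies lay within 20 Mb on chromosome 2, and none was called. The smallest unadjusted p of edgeR among them was 0.426, for Gm14038.

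The crossed split, in which each group holds 1 WT and 1 KO library from different tables, also gave 2 called copies, both higher in WT 4 and KO 6. They were again the only genes called, and percent called was 0.0122. Unadjusted p-values were under 0.05 for 13 copies and 447 genes in all. Gm8730 had counts of 150 in WT 1 and 161 in KO 5, against 5280 in WT 4 and 4776 in KO 6. The log2 fold change was 5.10 (SE 0.11, adjusted p 0.000221 by edgeR). Gm9625 had 11 and 10 counts in WT 1 and KO 5 against 605 and 655 in WT 4 and KO 6, a log2 change of 5.98 (SE 0.19, adjusted p 0.00115 by edgeR). Within each pair the libraries were nearly alike, although 1 is WT and the other KO.

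Gm14165 followed the same order with 0 counts in WT 1 and KO 5 and 64 and 65 in WT 4 and KO 6. That is at least 22.0-fold higher against a floor of 3 counts per library, and its edgeR adjusted p was 0.325. All 3 of these copies derive from Rplp0, and they lie on chromosomes 8, 13 and 2. Rplp0 had 28991, 22414, 29439 and 20848 counts in WT 1, WT 4, KO 5 and KO 6, lower where its copies were higher. The copies took 0.552% and 0.577% of the summed reads in WT 1 and KO 5, and 20.97% and 20.9% in WT 4 and KO 6. The sum of parent and copies was 1638, 1664, 1689 and 1622 CPM, a range of 1.04-fold, while the range was 1.31-fold for Rplp0 alone and 38.6-fold for the copies alone.

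Gm7901, a copy of the serine synthesis gene Phgdh on chromosome 8, had 18, 79, 12 and 81 counts. Its log2 difference of 2.49 (SE 0.33) missed the threshold (adjusted p 0.982 by edgeR). Gm9347, another copy of Phgdh that is below the count limit and was chosen after its values were seen, had 0, 45, 3 and 35 counts, also low in WT 1 and KO 5. Phgdh had 1833, 1705, 2202 and 1419. Gm9625, Gm14165 and Gm7901 reached 50 counts only in WT 4 and KO 6, so the rule that chose them favoured this order.

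The groups of the crossed split did not overlap in 70 copies, or 22.5%, where this held for 30.8% of all tested genes. This share too is bound to those of the other splits. Without KO 5 edgeR called 10 copies among 180 genes, without WT 1 it called 7 among 12, without WT 4 it called 4 among 5 and without KO 6 it called 3 among 13. Gm8730 and Gm9625 were called in all of these fits, and DESeq2 called 4 copies among 7 genes.

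**Figure D2:**
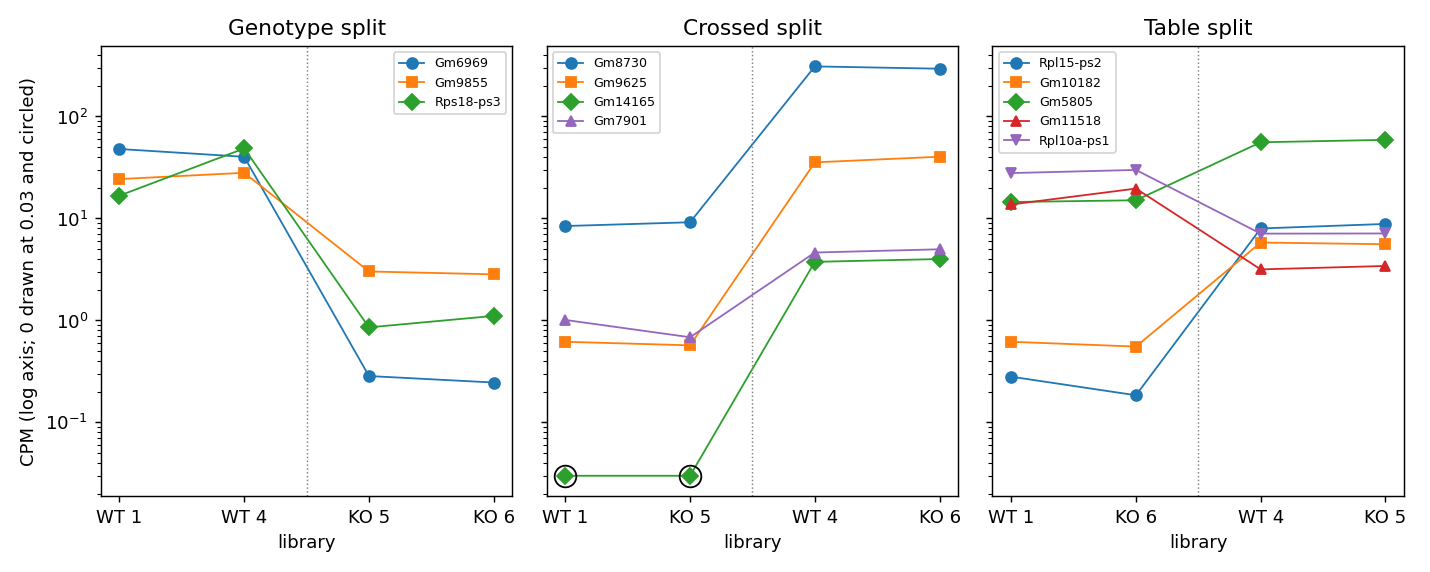
CPM on a log axis of copies in each library, ordered so that the libraries of a group stand together; the dotted line separates the groups of the genotype, crossed and table splits. Gm6969 drops from 854 and 686 counts to 5 and 4 between genotypes, Gm8730 rises from 150 and 161 to 5280 and 4776 in the crossed split, and the circled points of Gm14165 stand for 0 counts.

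The deposited tables separated more copies than genotype did. Of 310 copies edgeR called 26 by table, 14 higher in table A and 12 higher in table B. Among all 16371 genes it called 103, and percent called was 0.629, with 0.446 higher in table A and 0.183 higher in table B. Unadjusted p-values were under 0.05 for 110 copies and 2276 genes in all. The groups did not overlap in 198 copies, or 63.7%, against 45.8% of all genes, 116 higher in A and 82 in B. The lower shares by genotype and crossed are the remainder of this share and not separate results. The median size of the log2 difference was 0.39 over the copies and 0.15 over all genes, and by genotype it was 0.13 and 0.09. No difference between the splits was tested. The count of 26 was 68 without WT 1, 64 without KO 6, 11 without KO 5 and 10 without WT 4. The same fits called 444, 950, 46 and 33 of all genes. DESeq2 called 46 copies, which included all 26, among 394 genes.

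Among the called copies, those higher in table B had the larger changes. The median size of the log2 fold change was 2.09 for these and 1.19 for those higher in table A. Rpl15-ps2 reached the count limit only in table B, so the rule that chose it favoured a large change in this direction. How far this rule shaped the sizes in either direction was not tested. Rpl15-ps2 had 5 and 3 counts in WT 1 and KO 6, and 136 and 155 in WT 4 and KO 5, a log2 fold change, table A over table B, of -5.12 (SE 0.33, adjusted p 0.00172 by edgeR). Gm10020, a gene annotated as protein coding that shares 91.5% of its words of 25 bases with Rpl15, was chosen after its values were seen. It had 13 and 6 counts in WT 1 and KO 6 and 485 and 588 in WT 4 and KO 5. A further sequence like Rpl15 went the other way. Gm4294, with 99.0% of its words in Rpl15, had 374, 151, 125 and 334 counts in WT 1, WT 4, KO 5 and KO 6 and was called at 1.38 (SE 0.16, adjusted p 0.0239 by edgeR). Rpl15 itself had 13720, 11058, 10846 and 13406 and did not pass.

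Gm5805, a copy of the small-subunit gene Rps14, had 258, 952, 1035 and 245 counts in WT 1, WT 4, KO 5 and KO 6 and a log2 change of -1.96 (SE 0.09, adjusted p 0.00038 by edgeR). Gm8822, a copy of the actin-related gene Actr3, had 58, 273, 272 and 56 and a change of -2.23 (SE 0.18, adjusted p 0.00444 by edgeR). In both copies the libraries of a table agreed closely and the tables were far apart. Of the 24 copies of chromatin and high-mobility-group genes 15 were higher in table B and 9 in table A, and 3 were called. Gm10182 and Hmgn2-ps1, copies of Hmgn2, were called at -3.26 and -0.96, and Hmgb1-ps2, a copy of Hmgb1, at -1.01. These genes encode abundant chromatin proteins that bind nucleosomes or bend DNA. Hmgn2 itself was called the other way, at 0.69 (adjusted p 0.0375 by edgeR).
Another 5 called copies higher in table B, Gm5898, Gm10704, Nudc-ps1, Gm13841 and Gm11223, had log2 fold changes of -2.99 to -0.54.

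Among copies higher in table A, Gm11518, a copy of the large-subunit gene Rpl27, had 244 and 319 counts in WT 1 and KO 6 and 54 and 60 in WT 4 and KO 5. Its log2 fold change was 2.34 (SE 0.23, adjusted p 0.0127 by edgeR). Rpl10a-ps1, which is identical to Rpl10a over its coding part, had 496 and 486 counts in WT 1 and KO 6 and 121 and 125 in WT 4 and KO 5, at 2.02 (SE 0.13, adjusted p 0.00172 by edgeR). Rpl10a had 7431, 6966, 7042 and 7400 in WT 1, WT 4, KO 5 and KO 6 and did not pass. Gm15710, a copy of the large-subunit gene Rpl13, had 1101, 301, 283 and 970 in that order, at 1.85 (SE 0.09, adjusted p 0.000466 by edgeR). Tpt1-ps3, a copy of the gene of a translationally controlled tumor protein, had 2335, 946, 878 and 2033, at 1.28 (SE 0.08, adjusted p 0.0016 by edgeR). In these 4 copies KO 6 and WT 1 were at least 2-fold above both other libraries. The other 9 beside Gm4294 ran from 0.68 for Gm10052 to 1.68 for Gm14303.

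Copies of cytosolic ribosomal protein genes made up 14 of the 26, of 88 in the group, with 10 higher in table A and 4 in table B. Copies of chromatin and high-mobility-group genes gave 3, all higher in table B. RNA-binding protein copies gave 2, both higher in table A, and cytoskeletal copies gave 1 in each direction. Of 231 tested parent genes edgeR called 8 by table, all higher in table A, and 0 by genotype or crossed. The parents of the called copies number 24, and 2 of them, Hmgn2 and Rps29, were called. Library measures that moved with the table split were the share of counts from the mitochondrial genome, 3.70% and 4.16% in WT 1 and KO 6 against 3.27% and 3.02% in WT 4 and KO 5, and that of 83 ribosomal protein genes, 3.60% and 3.73% against 3.23% and 3.19%. Sums of some tissue markers were also parted by table, in part narrowly. Ttr and Folr1 are the choroid plexus markers in both tables. They summed to 10.3 and 13.8 CPM in WT 1 and KO 6 against 0.763 and 1.08 in WT 4 and KO 5. The lower of the pair had a mean of only 0.217 CPM. The 5 erythroid markers summed to 1062 and 1465 against 1006 and 763, with WT 1 close to WT 4. The 7 ventral forebrain markers summed to 628 and 289 against 285 and 182, with KO 6 close to WT 4. The 8 cortical markers summed to 2957 and 3263 against 3373 and 3369. The part of all these in the split was not tested. The labels do not say what the libraries of a table share.

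The direction by table was set beside the likeness of copy and parent, measured as the share of a copy's words of 25 bases that also occur in the parent. Of the 48 copies with all words in the parent, 38 were higher in A and 10 in B, at a median log2 difference of 0.47. From 80% to under 100% these were 88 and 60, with a median of 0.10. From 50% to under 80% they were 34 and 46, with a median of -0.09, and under 50% they were 16 and 17, with a median of -0.08. The called copies higher in table A had 86.4% to 100% of their words in the parent, and those higher in table B 56.9% to 100%. All words were in the parent for 7 of the 14 and for 2 of the 12. Copies of 1 parent share sequence, and all copies share the 4 libraries, so these counts are a description.

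**Figure D3:**
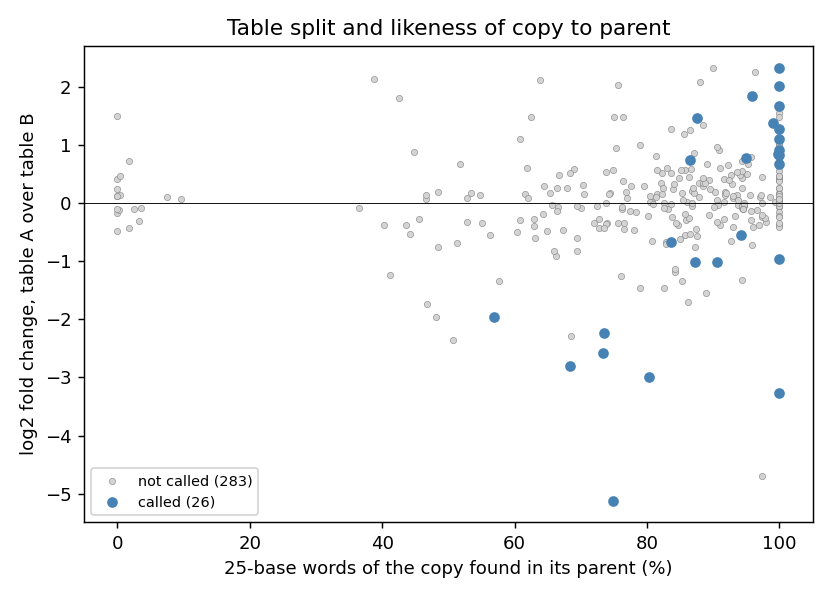
Each point is a tested copy with a parent, by the percentage of its words of 25 bases found in the parent and its log2 fold change, table A over table B; the 26 called copies are blue. Called copies above 0 lie at 86.4% or more, and called copies below 0 reach down to 56.9%.

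To cover copies outside the 3 splits, the libraries were ordered by CPM for each copy and the largest gap between neighbours was taken. In 66 of the 311, or 21.2%, this gap was at least 2-fold, where it was so in 4.14% of all tested genes. The gap parted the tables in 32 copies, against 0.696% of all genes, and 21 of them were higher in table A, against 0.519%. It parted the genotypes in 3 copies, all higher in WT, against 0.122% of all genes in either direction and 0.0977% higher in WT. Among these 3, Gm6969 and Rps18-ps3 reached the count limit only in WT, so the rule that chose them favoured this direction. The gap parted the crossed pairs in 4 copies, all higher in WT 4 and KO 6, against 0.153% and 0.0916%. It set 1 library apart in 27 copies, against 3.17% of all genes. The library apart was mostly the lowest: WT 1 in 9 copies, KO 6 in 8, KO 5 in 6 and WT 4 in 1, against 0.44%, 0.391%, 0.409% and 0.354% of all genes. High in WT 1 alone were 0 copies, where 1.34% of all genes were. The copies named from here on were chosen after their values were seen.

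Several copies of the same parent were low in the same library. Gm6166 and Gm14328, copies of the fatty acid-binding protein gene Fabp5, had 42 and 5 counts in WT 1. In WT 4, KO 5 and KO 6 Gm6166 had 1211, 1248 and 1766, and Gm14328 had 150, 124 and 150. Rps3a2 and Gm7600, copies of the small-subunit gene Rps3a1, had 85 and 2 counts in WT 1. In the others Rps3a2 had 930, 806 and 902, and Gm7600 had 54, 48 and 18. With the copies of Rpl34 named above, 6 of the 9 copies low in WT 1 came from 3 parents. Gm10154, a further copy of Rpl34, and Rps3a3, a further copy of Rps3a1, are not among the 6. Gm10154 had a log2 fold change, KO over WT, of 0.26 without WT 1 and 0.28 without WT 4. Its WT 1 was thus near its WT 4. Fabp5 had 7703 counts in WT 1 and 4334 to 5686 in the others, and Rpl34 had 5862 against 3076 to 3482. The copies held 0.606% of the summed Fabp5 reads in WT 1, against 22.8%, 24.04% and 25.2% in WT 4, KO 5 and KO 6.

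Of the 6 copies low in KO 5, 3 were of tubulin genes, which encode the subunits of microtubules. AC154767.3 and Gm14150, copies of Tuba1b, had 128 and 72 counts there. In WT 1, WT 4 and KO 6 AC154767.3 had 1333, 1684 and 2214, and Gm14150 had 530, 485 and 993. CT571252.1, a copy of Tuba1a, had 3 counts in KO 5 against 268, 175 and 502. Gm3756, a further copy of Tuba1b, was not low in KO 5 but in KO 6, with 840, 815, 1273 and 341 in WT 1, WT 4, KO 5 and KO 6. The sum of Tuba1b and its 4 copies was 804, 811, 747 and 752 CPM, a range of 1.08-fold. The sum of Rpl3 and Rpl3-ps1 ranged 1.07-fold, while the copy alone ranged 6.22-fold. A sum is nearly even whatever a copy does where the parent far outnumbers it. The ranges of Tuba1b and Rpl3 alone are not given here.

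In KO 6 the low copies had 8 different parents. Gm9825, a copy of the splicing gene Rnps1, had 701, 888, 922 and 27 counts in WT 1, WT 4, KO 5 and KO 6. Gm15487, a copy of the proton pump gene Atp6v0c, had 725, 947, 953 and 47. For Gm15487 the sum did not even out. With Atp6v0c, which had 157, 132, 136 and 174, it was 49.6, 63.3, 62.1 and 13.6 CPM. The largest single rise was that of Gm13394, a copy of the glycolytic gene Gapdh, with 101, 5067, 83 and 97 counts in WT 1, WT 4, KO 5 and KO 6. Gapdh had 1582 counts in WT 4 and 2480 to 2645 in the others. Here too the sum over Gapdh and its 6 copies was uneven, 571 CPM in WT 4 against 352 to 397.

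The authors' deposited tables compare 1 KO with 1 WT library each, and in their marks 31 of the copies were significant in table A and 19 in table B, where 4.75% and 2% of all genes were. Of these 11 were marked in both, 35.5% of the marks in A and 57.9% of those in B. Among all genes 969 were marked in A and 407 in B, and 81 in both, which is 0.397% of all genes. For 7 of the 11 the directions were opposite (among all genes 31 of the 81 marked in both, or 0.152% of all genes), for 4 the copy was lower in the KO in both tables, and for 0 it was higher in both. In the authors' deposited table Gm8730 was 34.3-fold higher in KO 6 than in WT 1, and in the other authors' deposited table the ratio of KO 5 to WT 4 was 0.0298. Gm6969 had ratios of 0.00505 and 0.00712 in the authors' deposited tables.

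**Figure D4:**
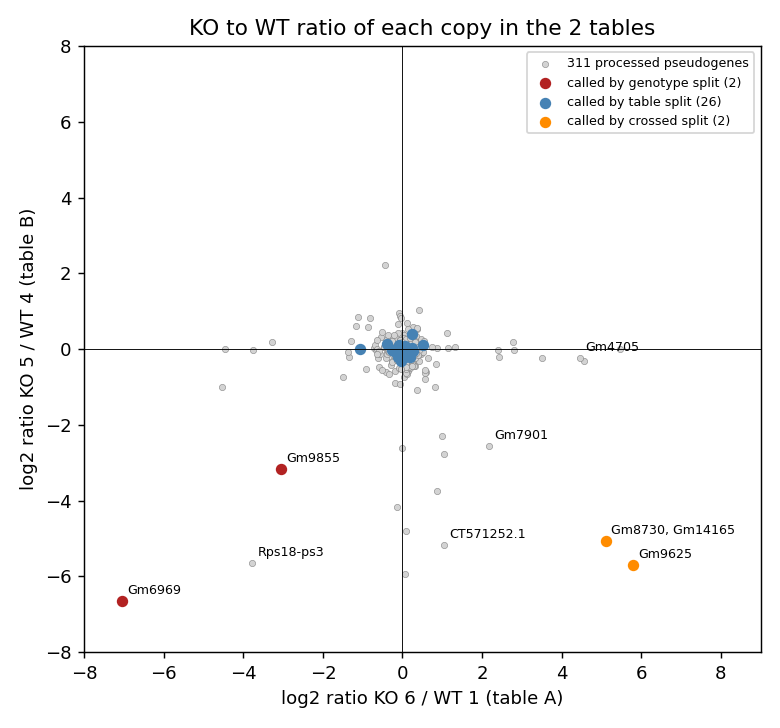
Each point is 1 of the 311 copies, by its log2 ratio of KO 6 to WT 1 (table A) and of KO 5 to WT 4 (table B). Gm6969, Gm9855 and Rps18-ps3 lie at the lower left, lower in the KO in both tables, while the Rplp0 copies Gm8730, Gm9625 and Gm14165 lie at the lower right with opposite signs, and copies called by table lie near 0 on both axes.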

How the data were processed

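Whole read counts per Ensembl gene were deposited by the authors in 2 tables of 1 KO and 1 WT library. Tools named in the submitters' processing notes are HTSeq 0.6.0, TopHat2 2.0.12 and Bowtie2 2.2.3, with mm9 as build. Of the 311 copies, 305 have the start and end that GENCODE M21 gives on GRCm38. The strand setting and the treatment of reads that match several places are not given in the sources used here, so counts on copies are uncertain. The deposited fold is the ratio of KO to WT, per the file headers, the deposited log2 value is its logarithm, and the deposited p-value compares 1 library with 1 library.

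Counts of the 20385 genes in both tables were fitted in R 4.3.3 with edgeR 4.0.16 (filterByExpr, 16371 genes, TMM factors 0.994 to 1.01, quasi-likelihood test, two-sided, Benjamini-Hochberg adjustment, 0.05). CPM in the text are scaled by TMM. Alternatives used DESeq2 1.42.0, limma 3.58.1, blocks, other count limits and each library left out. Parents are the protein-coding genes of the best BLAST 2.17.0 alignment. Python 3.11.15 and pandas 2.3.3 were used. In simulated counts of each split, with 200 genes changed by 3 on the log2 scale, edgeR called all 200, with 3, 11 and 10 false calls by genotype, table and crossed. The simulation gave every gene the same fixed spread and added no difference between libraries beside the split. Only genes with a mean count of at least 50 were changed. The full recovery therefore does not show what the fit can find in these libraries. A count of 3 was the floor for a library at 0, which covers counting error only.

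The copies, lists and tests were chosen with earlier results of these data known. Named copies are those called in a split, up to 10 per direction of smallest p by genotype, 6 of smallest p in each other split, the 6 of highest mean CPM and those at the count limit, with their parents. For ratios of libraries in 1 table, 2 counts were added before taking log2. Sequence from chromosome 18 was not printed. The values of 1 copy called by table are not reported here.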

Additional observations from a re-analysis of the deposited data

Results flagged for a closer look

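The KO to WT ratio had opposite signs in the 2 tables in 171 of the 311 copies, and in 7 of them the authors marked both ratios as significant. The difference of the log2 ratios, KO 6 over WT 1 minus KO 5 over WT 4, taken after adding 2 counts, was 10.16 for Gm8730 and 11.48 for Gm9625, copies of Rplp0. For Gm14165, the remaining copy of Rplp0, it was 10.20, a value that depends on the added counts because WT 1 and KO 5 had 0, and against a floor of 3 counts it was at least 8.92. It was 4.75 for Gm7901, the copy of Phgdh, 6.21 for CT571252.1 and 3.79 for Gm14150, the copies of tubulin genes, and 3.28 for Gm15801, a copy of the phosphatase gene Ptp4a1 with 32, 60, 11 and 60 counts in WT 1, WT 4, KO 5 and KO 6. Gm9625, Gm14165 and Gm7901 reached the limit of 50 counts only in WT 4 and KO 6. Each ratio rests on 1 library against 1 library, so the difference between the tables was not tested.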

How the results depend on the processing

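No paired analysis was possible because the WT and KO libraries share no replicate number, and the table block below joins libraries only by the table that holds them. Of all genes edgeR called 2 by genotype, DESeq2 9, the crossed block 1 and the table block 29, and leaving out 1 library gave 5 to 312. Of the copies the crossed block called 1 by genotype, and leaving out 1 library gave 4 to 14. By table DESeq2 called 46 copies, and leaving out 1 library gave 10 to 68. In the crossed split DESeq2 called 4, and leaving out 1 library gave 3 to 10. A limit of 20 counts gave 521 copies in place of 311. Non-overlap by genotype, in 43 copies, became 25 at a limit of 100 counts and 114 at 20, which is 12.02% and 21.9% of the copies in place of 13.8%. In the crossed split, from 70, it became 45 and 121, which is 21.6% and 23.2% in place of 22.5%. Of the named copies Gm12396 and Gm13736 changed sign by genotype without KO 6, and over the libraries left out their log2 values ran from -0.0050 to 1.18 and from -0.051 to 0.94. Of the other values of named copies under an alternative, 362 kept direction and side of the threshold, 46 lost the call and 14 gained one. The cause was not tested. With 2 libraries per group, and 1 left in a group when a library is left out, the spread is estimated from few values.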
